A study of Mus musculus with 8 samples.

Results

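The regions described here were stretches of the mouse genome that were bound by PRDM16 in both wild-type cortex libraries, overlapped no peak of either mutant library, and had their summit inside a protein-coding gene, more than 1 kb from the nearest end of any protein-coding gene. There were 4279 of them, out of 9232 regions found in both wild-type (WT) lists and neither mutant list, and out of 10090 regions shared by the WT lists. PRDM16 was measured by chromatin immunoprecipitation sequencing (ChIP-seq) in lysates of whole cerebral cortex from mouse embryos at E15.5, a stage of ongoing cortical neurogenesis. The WT group (2 ChIP libraries) carried Prdm16 flox/flox alleles without Cre. The conditional knockout group, cKO (2 ChIP libraries), carried Emx1Ires-Cre; Prdm16flox/flox. Both groups therefore shared the floxed alleles and differed in the Cre, which is expressed from the Emx1 locus in the dorsal telencephalic lineage, so cells of other origin within the cortex keep Prdm16. The other 4 libraries of the series were inputs and entered no value of their own here, though they may have set the background of the deposited folds. The labels do not say which embryos or pools of embryos each library came from, and 2 libraries against 2 cannot give an exact permutation p under 0.333, so no test between the genotypes was made. The selection itself used the WT and cKO lists, so the absence from cKO is a description of how the regions were chosen and not a finding.

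PRDM16 is a zinc finger protein of the PR domain family that binds DNA and recruits coactivators, corepressors and chromatin-modifying enzymes. In the developing cortex it is known from radial glia, the progenitors along the ventricle that produce neurons and later glia. Distal regulatory elements often lie inside genes, in the gene they regulate or in a neighbour of it, so a summit inside a gene names a place and not a target. Whether a summit lay in an exon, an intron or an untranslated region was not analysed here.

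For most regions no sequence could be printed, because sequence was used only for windows at annotated start sites. Of the 4279 regions, 58 (1.36%, 95% Wilson interval 1.05 to 1.75) had their summit in a window from 250 bases before to 50 bases after an annotated start site lying inside a gene body. The 7 stretches printed here, of 250 bases each, end at such start sites. Those of Asic2, Coro1c, Ccdc60, Nfia, Prdm16 and Mlc1 are shown because they hold the highest folds among those 58. The Sox6 stretch was added by choice, as a further transcription factor gene. Stretches of other such hosts, among them Myt1l and Foxp1, were not printed. Mlc1 encodes an astrocyte membrane protein, and Coro1c an actin-binding protein. Sequences are from RefSeq, assembly GRCm38.p6 (the mm10 build of the files), and read 5′ to 3′ on the strand of the start site. The 21 capital letters are centred on the mean of both WT summits.
Asic2, before the start site of 5530401A14Rik: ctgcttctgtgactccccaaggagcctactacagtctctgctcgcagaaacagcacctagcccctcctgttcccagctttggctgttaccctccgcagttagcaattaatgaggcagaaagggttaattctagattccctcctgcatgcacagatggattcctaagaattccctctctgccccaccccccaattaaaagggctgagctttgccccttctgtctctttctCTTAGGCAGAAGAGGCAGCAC
Coro1c, before the start site of Gm42005: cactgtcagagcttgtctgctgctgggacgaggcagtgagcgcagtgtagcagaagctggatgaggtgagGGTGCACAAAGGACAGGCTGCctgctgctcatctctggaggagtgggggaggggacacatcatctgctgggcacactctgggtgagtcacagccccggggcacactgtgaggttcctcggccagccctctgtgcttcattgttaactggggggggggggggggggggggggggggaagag
Ccdc60, before the start site of Gm52827: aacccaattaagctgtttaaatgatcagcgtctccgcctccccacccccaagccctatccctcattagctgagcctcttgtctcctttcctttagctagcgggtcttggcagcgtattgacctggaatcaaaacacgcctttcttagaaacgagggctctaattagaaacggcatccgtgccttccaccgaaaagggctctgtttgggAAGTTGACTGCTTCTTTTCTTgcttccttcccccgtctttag
Nfia, before an internal start site of its own: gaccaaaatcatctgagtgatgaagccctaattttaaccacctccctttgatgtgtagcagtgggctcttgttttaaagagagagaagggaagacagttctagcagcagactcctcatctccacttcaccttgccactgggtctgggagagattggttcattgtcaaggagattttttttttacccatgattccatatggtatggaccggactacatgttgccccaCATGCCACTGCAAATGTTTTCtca
Prdm16, before the start site of Gm13133: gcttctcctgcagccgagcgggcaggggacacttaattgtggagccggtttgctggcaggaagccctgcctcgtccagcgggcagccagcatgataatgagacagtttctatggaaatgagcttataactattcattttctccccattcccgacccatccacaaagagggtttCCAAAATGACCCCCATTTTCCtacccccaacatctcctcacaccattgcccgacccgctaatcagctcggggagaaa
Mlc1, before an internal start site of its own: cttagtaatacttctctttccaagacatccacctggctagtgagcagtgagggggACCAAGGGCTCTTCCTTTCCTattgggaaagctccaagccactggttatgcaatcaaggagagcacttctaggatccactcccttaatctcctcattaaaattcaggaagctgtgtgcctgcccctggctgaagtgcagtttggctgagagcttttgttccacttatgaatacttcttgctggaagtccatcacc
Sox6, before an internal start site of its own: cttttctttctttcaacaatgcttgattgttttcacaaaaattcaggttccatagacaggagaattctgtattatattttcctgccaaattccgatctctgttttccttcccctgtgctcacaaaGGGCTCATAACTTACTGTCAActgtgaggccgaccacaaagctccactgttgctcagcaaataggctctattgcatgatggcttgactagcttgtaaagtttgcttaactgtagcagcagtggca
The windows lie, in the same order, at chr11:81860427-81860676, chr5:113873106-113873355, chr5:116278434-116278683, chr4:97581693-97581942, chr4:154550032-154550281, chr15:88978554-88978803 and chr7:115824711-115824960. The first 5 are on the + strand, and those of Mlc1 and Sox6 are on the - strand.

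The fold enrichments behind these sequences, as the authors deposited them, are ratios of the ChIP signal at a summit to a local background set per library. Whether the caller took that background from the inputs was not examined here. At the Asic2 stretch they were 48.1 in WT replicate 1 and 44.7 in WT replicate 2, with the mean summit 11 bases before the start site of 5530401A14Rik, a transcript on the opposite strand of its host. At Coro1c they were 32.3 and 44.4, and at Ccdc60 17.6 and 35.9, so the 2 libraries differed most at the Ccdc60 stretch. In the Nfia stretch, where the folds were 18.2 and 23.4, the summit lay 14 bases before an alternative start site of Nfia. The Prdm16 stretch had folds of 16.4 and 18.5 and a summit 67 bases before the start of Gm13133. At Mlc1 the folds were 16.2 and 17.4, and at Sox6 8.74 and 9.31, with the WT libraries close to each other at both.

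After merging, replicates 1 and 2 gave 13852 and 26652 peaks in WT and 4553 and 3088 in cKO. The median local background, solved from each deposited fold and p-value, was 0.985 and 2.32 reads per position in the WT libraries and 3.72 and 3.26 in the cKO libraries. Whether the caller scaled the libraries is not known, so these values do not rank the libraries by depth. At the median background of each library, the smallest fold that could have passed the authors' threshold was 3.53 and 3.01 in WT and 3.18 and 3.29 in cKO. In 4241 of the 4279 regions (99.1%) the lower of the WT folds was above 3.29, and in 1941 (45.4%) it was above that limit even when halved. Each region had to be called in both WT lists, at limits near those of cKO, so the first share follows largely from the selection. Neither share measures what the cKO libraries could detect. The deposited WT lists share a library identifier that the cKO lists do not, so genotype and library batch cannot be told apart. Summits inside gene bodies made up 44.0% and 44.6% of the WT lists and 30.7% and 30.1% of the cKO lists, whereas summits within 1 kb of a gene end made up 10.15% and 10.05% of the WT lists and 40.04% and 40.29% of the cKO lists. The WT and cKO libraries did not overlap in either share, but 2 libraries against 2 cannot give an exact permutation p under 0.333. The lists also differ in length, and the difference in shares was not tested.

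Of all 10090 regions shared by the WT lists, 91.5% overlapped no cKO peak. Among the 4574 with a summit in a gene body the share was 93.6% (95% Wilson interval 92.8 to 94.2), which left 295 that a cKO peak overlapped. The intervals cover counting error over regions only. The share was 73.0% at gene ends, 90.6% between genes within 100 kb of one, and 94.7% farther out. Gene bodies held 46.3% of all WT-only regions (45.3 to 47.4) on 36.3% of the genome span. Gene ends held 5.61% of them on 2.91% of the span, so a share above that of the span was not particular to gene bodies. The regions at gene ends numbered 518, those between genes 2534, and those over 100 kb from a gene 1901. In fold the gene-body regions lay close to the intergenic ones: the median was 6.93 in WT replicate 1 and 7.91 in WT replicate 2, against 6.93 and 8.10 within 100 kb of a gene, 7.32 and 8.65 farther out and 6.16 and 6.11 at gene ends. Their median width was 545 bp, against 556, 582 and 409.5 bp in the same order.

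Most gene-body regions lay many kb from any end of a protein-coding gene. Their hosts were long, with a median of 126 kb, and the same distances for all gene-body bases were not computed. With the ends of all RefSeq genes counted, the median distance was 18941 bp. The median summit was 45039 bp from the nearest gene end, 3597 (84.1%) were over 10 kb from one, and 1061 (24.8%) were over 100 kb from one. At the limit of 1 kb that defined them, the members nearest it were a region in Cfap100, with folds of 5.01 and 5.17, and a region in Sall2, with folds of 7.32 and 7.22, both 1003 bp from a gene end. Just outside the limit were regions at Ralgps2, 980 bp from an end with folds of 4.72 and 5.06, and at Gm52310, 976 bp away with folds of 3.38 and 5.85. Both excluded regions had a lower mean fold than either of the members. The nearest cKO peak was a median of 123940 bp away, 44 regions (1.03%) had one within 1 kb and 1100 (25.7%) had one within 50 kb. Members were chosen to overlap no cKO peak, and these distances were not computed for other regions, so they only describe the members.

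The strongest region lay in Ralgapa2, which encodes a subunit of a GTPase-activating complex for Ral proteins, at chr2:146330243-146331591. Its fold was 58.3 in WT replicate 1 and 65.2 in WT replicate 2 (mean 61.7 ± 4.89, SD, n = 2), from summit pileups of 137 and 246 reads, and the summits of the libraries were 17 bp apart. Myo1d, which encodes an unconventional myosin, held the next, with folds of 58.0 and 54.9 (mean 56.5 ± 2.24). The third was in Mthfd2l, a gene of mitochondrial folate metabolism, where the libraries were farther apart, at 71.1 and 38.9. These 3 were in genes with different numbers of regions: Ralgapa2 held 11, Myo1d 5 and Mthfd2l 1.

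Receptor genes followed. Notch2, a receptor of the Notch pathway that maintains neural progenitors, had folds of 41.4 and 61.7 at a summit 29.7 kb from its 5′ end. Erbb4, a receptor for neuregulins, had 37.0 and 63.9 at 61.8 kb from its 5′ end, and Acvr1b, a type I receptor for activins, had 41.3 and 54.2. In each of these receptor genes WT replicate 2 was the higher library. The glial and channel genes were mixed in order: Slc1a3, the glutamate transporter of radial glia and astrocytes, had 48.1 and 38.6, Ttyh1, a membrane protein enriched in neural stem cells, had 29.5 and 63.3, Asic2, an acid-sensing ion channel, had the values given above, and Ano1, a calcium-activated chloride channel, had 30.3 and 55.6. Transcription regulators among the 15 strongest were Auts2 (47.1 and 52.0), the basic helix-loop-helix gene Tcf4 (43.2 and 43.9) and the zinc finger homeobox gene Zfhx4 (36.5 and 51.9). The other two were Umad1 (36.3 and 54.2) and BC052040 (48.9 and 38.1). In all 15 the lower of the folds was at least 29.5, the value of Ttyh1 in WT replicate 1, and WT replicate 2 was the higher library in 10 of the 15.

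The nearest other protein-coding gene was often far from the strongest summits. Non-coding genes were left out, and at Asic2 the start of one lay 11 bases from the summit. The nearest protein-coding neighbour of the Ralgapa2 summit was Insm1, a transcription factor gene of neurogenic progenitors, at 106024 bp. For Myo1d it was Cdk5r1, which encodes the neuronal activator of Cdk5, at 37446 bp. For BC052040 it was Meis2, a homeobox gene, at 137510 bp, and for Slc1a3 it was Nipbl at 194416 bp. For Acvr1b it was Grasp, at 32300 bp. The host's own end was nearer than these neighbours in each case, at 91168 bp in Ralgapa2, 36504 bp in Myo1d, 55020 bp in BC052040, 25607 bp in Slc1a3 and 17835 bp in Acvr1b. At Ttyh1, the shortest of these hosts (15.9 kb), a cKO peak lay 3838 bp away in cKO replicate 1 and 3754 bp away in cKO replicate 2. At Tcf4 the distances were 14404 bp and 14499 bp, and at Mthfd2l 35605 bp and 35597 bp.

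Over all 4279 regions the mean of both folds had a median of 7.49, with quartiles of 5.90 and 10.3 and a range from 3.67 to 61.7. A mean of 10 or more was reached by 1141 regions (26.7%), of 20 or more by 167 and of 40 or more by 19. The strong regions were thus a thin upper tail. The summit pileup had a median of 13 reads in WT replicate 1 and 27 in WT replicate 2, each on the scale of that library. The folds of the libraries were within 1.5 times of each other in 3049 regions (71.3%) and over 2 times apart in 322. Of those 322, replicate 2 was higher in 260 and replicate 1 in 62, and over all regions replicate 2 was higher in 2623 (61.3%). Across regions, which share both libraries and are not replicates, the log2 folds had a Pearson r of 0.69 and the folds a Spearman rho of 0.60.

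**Figure D1:**
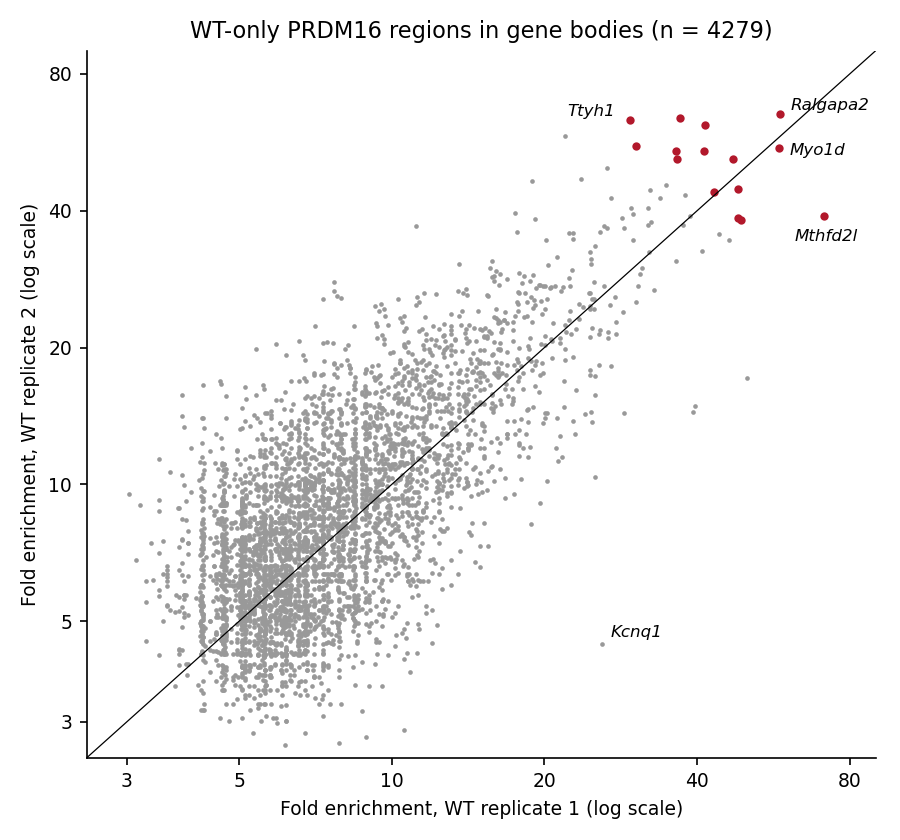
Each point is one of the 4279 WT-only gene-body regions, with the deposited fold enrichment in WT replicate 1 on the x axis and in WT replicate 2 on the y axis, both on log scales. The line marks equal folds, the red points are the 15 regions with the highest mean fold, and Kcnq1 (26.0 against 4.46) is the point farthest from the line.

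The regions on which the libraries differed most went both ways. In Kcnq1, a potassium channel gene, the fold was 26.0 in replicate 1 and 4.46 in replicate 2, with summit pileups of 96 and 12 reads. Slc14a2, a urea transporter gene, had 10.6 and 2.88, and Creb5, a leucine zipper transcription factor gene, had 8.88 and 2.78. Higher in replicate 2 were Rph3a, a synaptic vesicle gene, with 3.85 and 15.7, Cd247, a T cell receptor subunit gene, with 4.25 and 16.5, and Ccdc68, with 4.59 and 16.9. All 6 were in both WT lists and are members on the same terms as the rest.

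Stronger regions were wider, and their summits lay closer together in the WT libraries. The median width rose over 4 equal groups of rising mean fold from 387 to 473, 594 and 850.5 bp, and the median gap between the summits of the libraries fell from 72.5 to 62, 58 and 40 bp. Fold and width come from the same peak calls, and their Pearson r on the log2 scale was 0.64 across regions. The widest region, of 3774 bp, was the one in BC052040. Next came one in Lmo3, which encodes a LIM domain protein, at 3373 bp with folds of 50.1 and 17.2, and one in Etl4, at 3207 bp with folds of 16.8 and 17.4. In Etl4 the summits of the libraries were 1761 bp apart, the largest gap of all members, although the folds were nearly equal.

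The 4279 regions fell in 2025 of 21887 protein-coding genes (9.25%). Without WT replicate 1, which made the shorter WT list, these would be 11316 regions in 3838 genes, since WT replicate 2 alone then sets the WT side. Of the host genes, 1148 (56.7%) held 1 region, 389 held 2 and 179 held 3. The 196 genes with 5 or more held 1401 of the regions, or 32.7%. That number of genes was 680 without WT replicate 1, 112 with a −log10 q of at least 5, and 8 with each list held to the length of the shortest, which left 857 regions in 629 genes. A gene with several regions was long: the median length was 126 kb for all hosts and 416 kb for those with 5 or more, against 17.2 kb for all protein-coding genes. In 1511 hosts (74.6%) no summit of either cKO list lay in the body, and 142 hosts (7.01%) also held a gene-body region that a cKO peak overlapped. The same shares over all protein-coding genes were not computed. The cKO lists held only 1396 and 931 gene-body summits, so the 74.6% is not read as a trait of the hosts.

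Auts2, a regulator of transcription in developing neurons whose human counterpart is linked to intellectual disability, held the most, with 30 regions over 1106 kb. Its 2 strongest had folds of 47.1 and 52.0, and of 32.0 and 40.5, and lay 2.482 kb apart. The body of Auts2 also held 5 regions that a cKO peak overlapped. Msi2, an RNA-binding protein of neural stem cells, held 22 regions in 379 kb, the strongest with folds of 9.50 and 24.96. Bach2, a leucine zipper repressor, held 20 in 348 kb, with 18.2 and 16.2 at the strongest. Neither cKO list had a summit in Msi2 or Bach2. Nfia, a nuclear factor I gene that acts in radial glia and in the onset of glial fate, held 17 in 541 kb, and the strongest, at 18.2 and 23.4, is the one whose sequence is printed above.

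**Figure D2:**
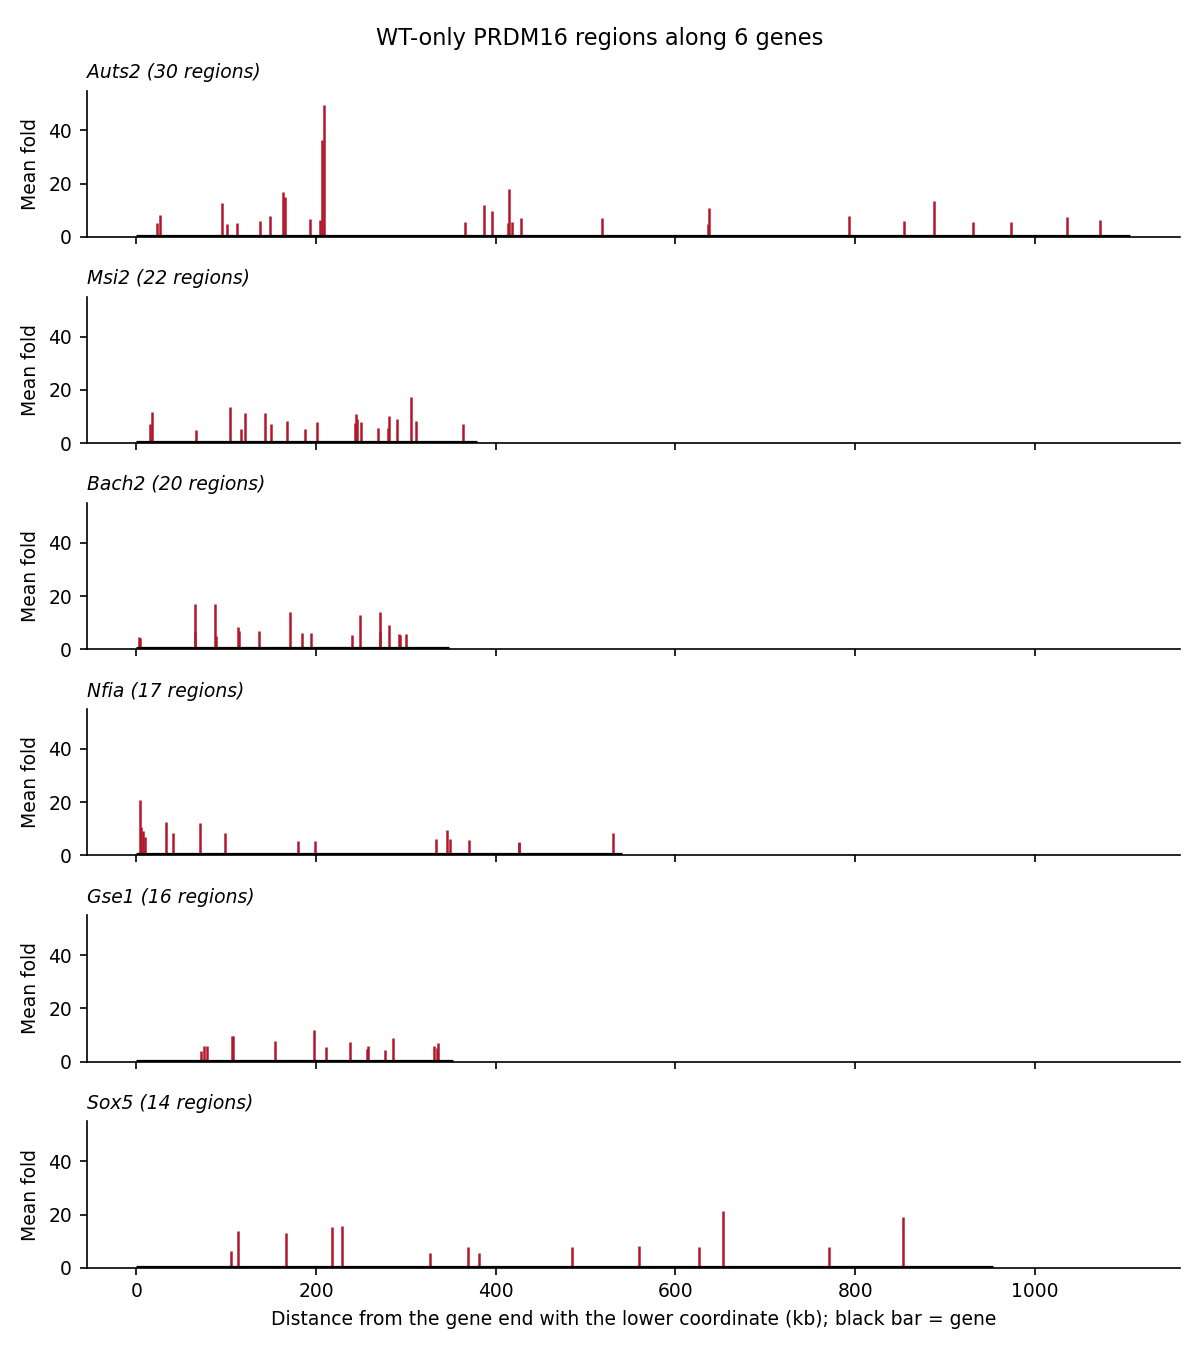
Each of the 6 panels is one host gene, drawn in kb from its end with the lower coordinate, and each vertical line is a WT-only region at its position, with the mean deposited fold of both WT libraries as its height. In Auts2 the pair 2.482 kb apart exceeds all other regions of the gene, and in Msi2 and Bach2 the regions are spread along the gene at lower folds.

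After these came Gse1 with 16 regions, Lrmda with 15, Sox5, Tenm4 and Frmd4a with 14 each, and Dab1 with 13. Sox5, a transcription factor of deep-layer neurons, had 25.1 and 17.3 at its strongest region. Tenm4, which encodes a teneurin cell-surface protein, had 19.1 and 38.4, and Dab1, the adaptor of Reelin signalling in migrating neurons, had 11.5 and 14.0. Gse1 differed from Msi2 and Bach2 in that 9 summits of cKO replicate 1 and 5 of cKO replicate 2 lay in its body. By number per length the order was another one. Among genes with at least 3 regions, Tchh, a hair follicle structural gene, came first, with 3 regions in 6.75 kb (44.5 per 100 kb) and folds between 5.07 and 9.41. Cfap20, a cilium gene, had 20.5 per 100 kb, Dnajb12, a chaperone gene, 15.2, C1qtnf1 12.9, Akna, which encodes a centrosomal protein, 9.10, and Sdc3, a syndecan gene, 8.88.

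Regions of the same gene were often near each other. Between neighbouring regions of one gene there were 2288 gaps, with a median of 27147 bp, and the shortest was 303 bp. In 450 of them (19.7%) the summits were within 5 kb, and in 409 (17.9%) they were over 100 kb apart. The Prdm16 gene was a host of this kind. It held 9 regions in its 321 kb, the strongest at chr4:154502795-154503967 with folds of 19.6 and 27.5 and another at 19.5 and 27.5. Each cKO list also had 2 summits in the Prdm16 body. Where in Prdm16 the floxed exons lie was not used here.

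Whether a gene held a region followed its length closely. The share was 0.467% of genes under 10 kb, 3.07% of those from 10 to 30 kb, 11.8% from 30 to 100 kb, 41.7% from 100 to 300 kb, 72.1% from 300 to 1000 kb and 88.1% of those of 1000 kb or longer. Per megabase of gene body the regions were more even, at 2.15, 2.11, 3.07, 5.43, 5.53 and 3.797 in the same order. Genes of 100 to 1000 kb thus held about as many per megabase in both classes, and the longest genes held fewer.

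**Figure D3:**
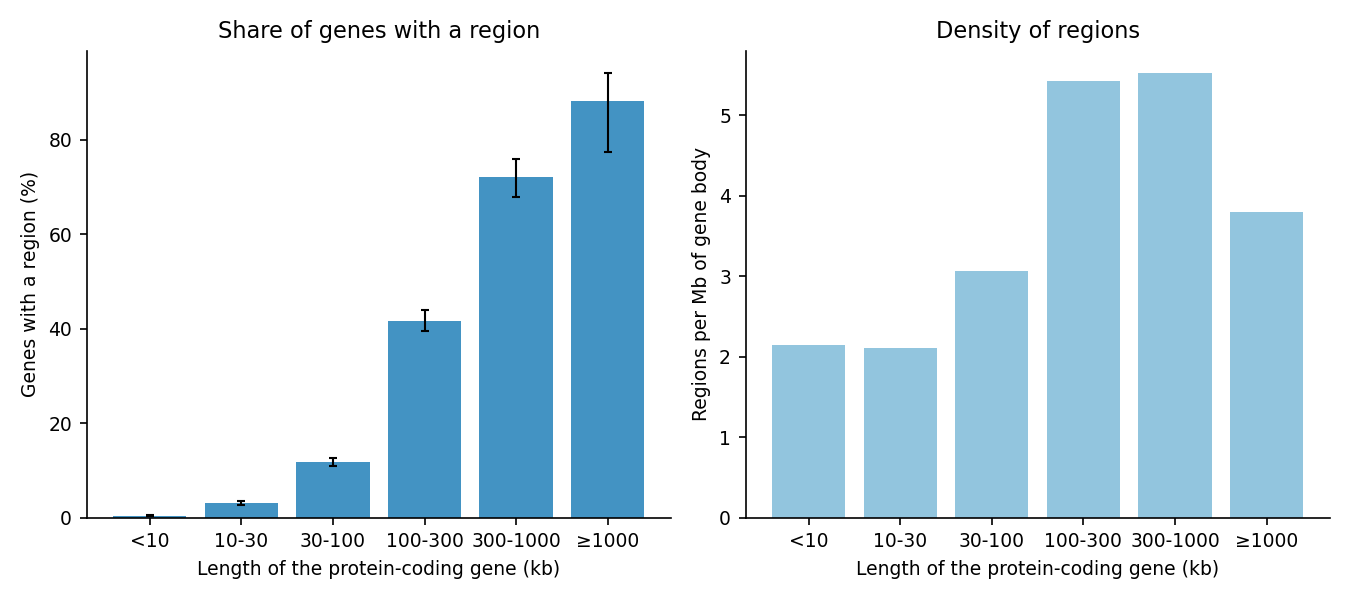
The protein-coding genes are grouped by length in 6 classes on the x axis, with the percent that held a WT-only gene-body region (left, bars with 95% Wilson intervals) and the number of regions per megabase of gene body (right). The percent climbs from 0.467 to 88.1, while the number per megabase stays between 2.11 and 5.53.

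For this reason each of the 20 gene lists was set beside the share over all protein-coding genes of its length classes. These lists were drawn up with earlier results of these data known, so their shares are descriptions. Of 468 listed genes 219 held a region, against 9.25% of all protein-coding genes, and 16 of the 20 lists lay above the share of their length classes.

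Genes of radial glia and neural stem cells held a region in 17 of 28 cases (60.7%), against 15.6% over genes of their lengths, with 31.1 regions per megabase. Besides Notch2, Ttyh1, Zfhx4 and Slc1a3 they included Notch1, with folds of 26.2 and 27.3 at its strongest of 3 regions, Gli3, a transcription factor of Hedgehog signalling, with 7 regions, and Dach1 with 5. Pax6, Lhx2, Nr2e1 and Msi1 held 2 each. Sox2, Sox9, Hes1, Hes5, Fabp7 and Emx2 held none inside the gene. Of the 28 genes, 3 are under 3 kb long, so that few or none of their bases could hold a member. Of the intermediate progenitor and proneural genes, 2 of 16 held a region (12.5%, against 3.37%): Elavl4, an RNA-binding protein of neurons, with 5.41 and 7.91, and Mfng, a glycosyltransferase acting on Notch, with 5.07 and 6.74. Eomes, Neurog2 and Insm1 held none.

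Deep-layer neuron genes held one in 7 of 12 cases (58.3%, against 33.7%) and upper-layer neuron genes in 6 of 13 (46.2%, against 26.3%). Among the deep-layer genes Sox5 held 14, Foxp2 7, and Tle4 and Bcl11b 4 each. The strongest were in Lmo3 and Sox5, with Tle4, a corepressor gene, at 16.6 and 23.0 and Foxp2, a forkhead gene, at 13.1 and 13.5. Among the upper-layer genes Cux2, a homeobox gene, held 6, and Cux1, Unc5d, Mdga1 and Lmo4 held 1 each. The Lmo4 region, with folds of 12.7 and 20.7, had both summits at the same base.

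The Notch, Wnt and TGF-beta lists held regions at components of several kinds, though most genes of each list held none. Shares by kind of component were not computed. In the Notch pathway 7 of 23 genes did so (30.4%, against 14.6%): the receptors Notch1 and Notch2, the ligand Jag1, the glycosyltransferases Lfng and Mfng, and the coactivators Maml2 and Maml3, with 6 regions each. The strongest in Maml3 had 12.4 and 16.6, and in Maml2 14.1 and 10.1. In the Wnt pathway 10 of 29 did (34.5%, against 19.8%). There the transcription factors Tcf7l1 and Tcf7l2 held 5 each, with 22.7 and 35.7 at the strongest in Tcf7l1, and the secreted inhibitor Sfrp1 had 15.3 and 22.0. Axin2, a feedback inhibitor of the pathway, had 5.49 and 13.7. In the TGF-beta, BMP and activin pathway 12 of 29 did (41.4%, against 17.5%), among them the receptors Acvr1b, Bmpr1b (5 regions, 7.70 and 18.5 at the strongest), Tgfbr3 (9.07 and 14.1) and Tgfbr2 (8.87 and 9.22).

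Genes for axon guidance held one in 25 of 32 cases (78.1%, against 50.3%). The receptor genes Robo1, with 37.8 and 43.3, and Epha3, with 22.0 and 58.5, had the strongest, and at Epha3 the libraries were 2.67 times apart. Efnb2, a membrane-bound ligand of Eph receptors, had 20.02 and 27.3. Ephb1 held 9 regions, Robo2 7 and Sema3a 6. Genes of neuronal migration and the cytoskeleton held one in 18 of 25 cases (72.0%, against 38.9%), with Dab1 at 13 regions, Ank2 at 7 and the microtubule-associated Map1b at 6, where the strongest had 25.2 and 15.7. Cadherin and cell adhesion genes held one in 25 of 31 cases (80.6%, against 63.3%), with Opcml at 11 and Nrcam and Ntm at 9. In the receptor tyrosine kinase list 11 of 23 genes held one (47.8%, against 38.5%), with Nrg1 at 10, Erbb4 at 8 and Ntrk2, the receptor for BDNF, at 22.4 and 23.0 in the strongest of its 6.

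Transcription factor genes of the nuclear factor I, PBX and MEIS families and others held a region in 25 of 28 cases (89.3%, against 49.1%), with 148 regions and 18.03 per megabase. Bach2 and Nfia led this list, and Creb5 held 10 regions and Nfib 9. The strongest in Nfib had folds of 22.7 and 29.6, and in Rora, a nuclear receptor gene, 20.6 and 27.2. Nfic, Zeb1 and Rfx7 held none. Mecom, which encodes the closest relative of PRDM16, held 2. The median fold of the regions of this list was 7.02, against 7.49 over all members, so the folds of these regions were not above those of members in general. Chromatin and cofactor genes held one in 13 of 30 cases (43.3%, against 29.2%), and 30 of their 56 regions were in Auts2. Tle1, a corepressor gene, had 23.4 and 23.1.

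The synaptic and ion channel lists, both of long genes, lay below the share of their lengths. Synaptic receptor and scaffold genes held one in 15 of 26 cases (57.7%, against 65.4%), at 2.38 regions per megabase, and ion channel genes in 15 of 27 (55.6%, against 63.2%), at 3.26. Individual regions there were strong, with 26.7 and 21.6 in Grid1, 15.8 and 28.6 in Grik2 and 29.9 and 39.3 in Kcnh7. Gria1, Gria2, Scn1a and Scn2a held none.

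**Figure D4:**
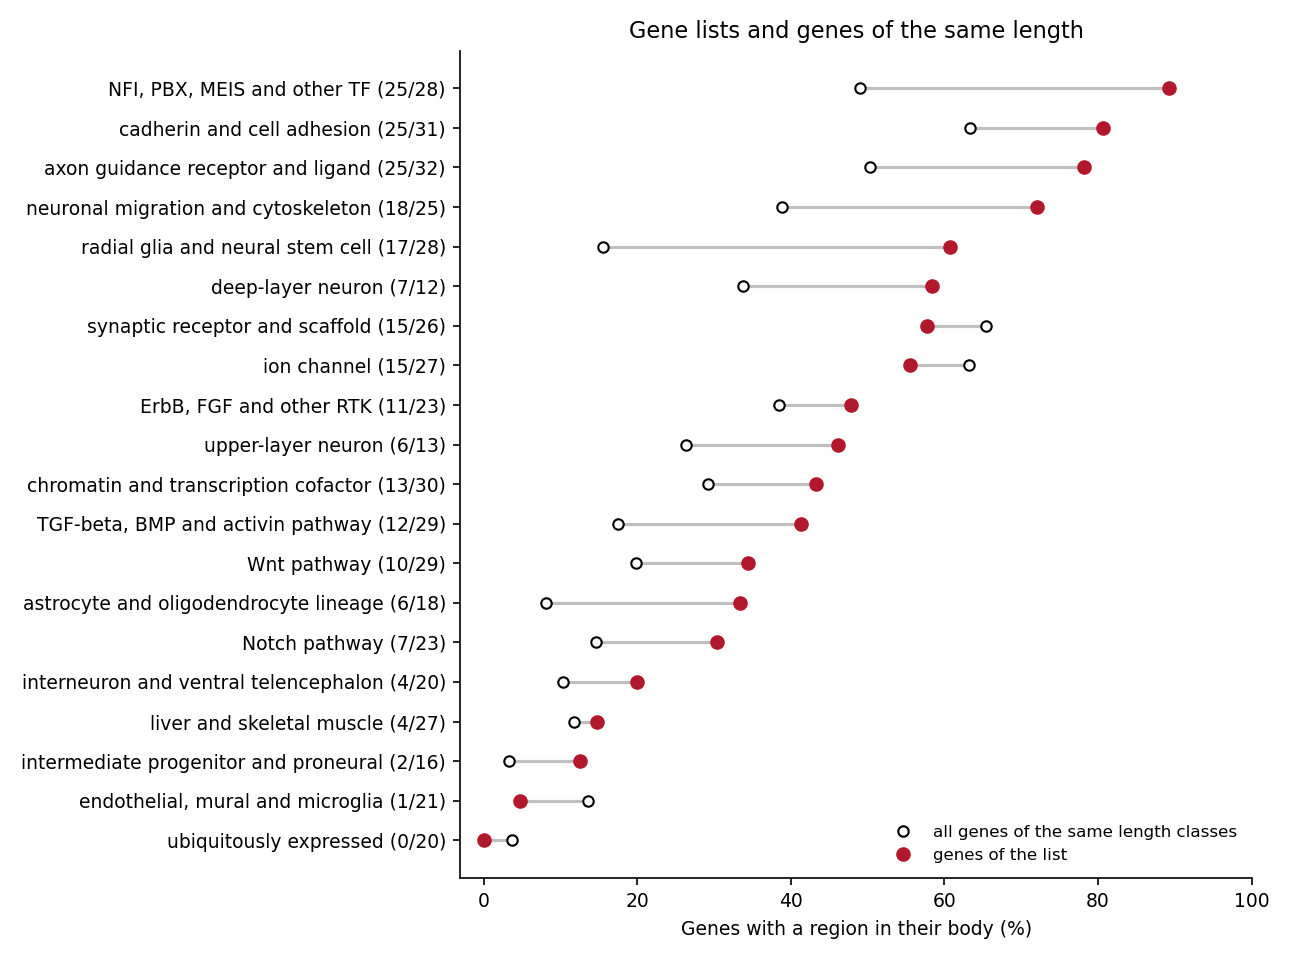
For each of the 20 gene lists on the y axis, the percent of its genes that held a WT-only gene-body region is plotted beside the percent over all protein-coding genes of the same length classes. Radial glia genes (60.7 against 15.6) and the transcription factor list (89.3 against 49.1) show wide gaps, and the synaptic, ion channel, endothelial and microglia, and ubiquitous lists lie on the other side.

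Lists of other cell types were included because whole cortex holds them or could carry them over. A list of ubiquitously expressed genes was set beside them. Astrocyte and oligodendrocyte genes held a region in 6 of 18 cases (33.3%, against 8.14%), with 1 each in Sparcl1, Aldh1l1, Aldoc, Slc1a2, Aqp4 and Gja1. The other 12 held none, among them Gfap, S100b and Apoe, known from astrocytes, and Olig1, Olig2, Sox10 and Mbp, known from the oligodendrocyte lineage. Interneuron and ventral telencephalon genes held one in 4 of 20 (against 10.3% over genes of their lengths), and 10 of the 13 regions were in Sox6, where the strongest had 27.6 and 25.9. Of 21 endothelial, mural and microglia genes only Pecam1 did (4.76%, against 13.5%), with 10.3 and 15.1. Liver and skeletal muscle genes held one in 4 of 27 (14.8%, against 11.8%): Ryr1, with 18.7 and 28.0 at the stronger of 2, Dmd, Neb and Ttr. None of the 20 ubiquitously expressed genes did, against 3.77% over genes of their lengths. The share of each cell type in the lysates was not measured, so it cannot be said which cells carried the binding.

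Along the host gene the regions were spread almost evenly. Of the 4279 summits, 3329 (77.8%) lay in 1567 genes whose strand was given and could be placed from the 5′ end. Dividing each gene into 5 equal parts from the 5′ end, these held 16.8% (15.6 to 18.1), 21.2%, 20.1%, 22.1% and 19.7% of them. The bases over 1 kb from the ends divided into 19.7%, 20.2%, 20.2%, 20.2% and 19.7%, so over all genes the part at the 5′ end held fewer regions than its bases. By gene length, with no test of the difference, the order was not the same: in genes under 100 kb (855 summits) the part at the 5′ end held 19.9% and the part at the 3′ end 14.7%, and in genes of 100 kb or more (2474 summits) they held 15.8% and 21.4%. The median summit was 91.4 kb from the 5′ end, and 330 (9.91%) were within 10 kb of it.

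**Figure D5:**
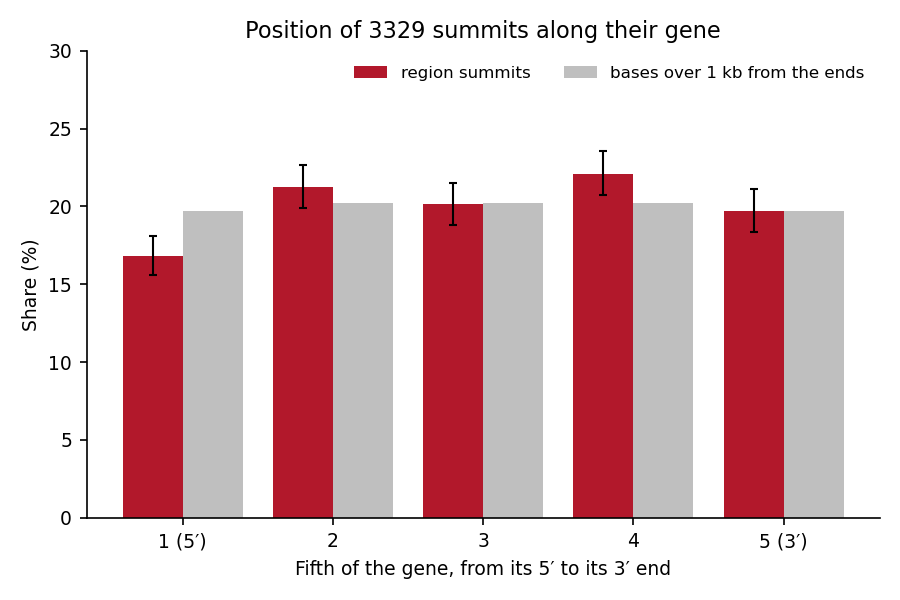
The 3329 summits in genes of known strand are placed in 5 equal parts of the host gene from the 5′ end (x axis), as a percent of summits (red), beside the percent of bases over 1 kb from the ends (grey). The red bars run between 16.8 and 22.1 percent, with the lowest in the part at the 5′ end.

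Among chromosomes X stood apart. It held 53 members on 43.8 Mb of gene body, or 1.21 per megabase, against 4.48 on the autosomes, which ranged from 3.65 on chromosome 17 to 5.29 on chromosome 4. The density on the autosomes was 3.70 times that on X. Taking all gene-body summits of each list, the ratio was 3.58 in WT replicate 1 and 3.64 in WT replicate 2. In the cKO lists, with 6 summits each on X, it was 10.8 and 7.15. The median background of the X summits was also lower, at 0.777 against 1.02 reads per position on the autosomes in WT replicate 1 and at 1.78 against 2.32 in WT replicate 2. The part of the lower background in the lower density was not tested. No label used here gives the sex of the embryos. The strongest X regions had folds of 20.8 and 22.6 in Pola1, which encodes the catalytic subunit of DNA polymerase alpha, and 18.8 and 18.7 in Pak3, a kinase gene of neurons.

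Start sites inside genes were met more often than their length. The 6671 start-site windows lying in gene bodies covered 0.186% of gene-body bases, against the 1.36% of members with a summit in one. Of those 58 members, 35 were at an alternative start of the host and 23 at the start of another gene, which in no case was protein-coding. Of these 23 starts, 16 were on the strand opposite to the host, 2 on the same strand and 5 in hosts of unknown strand. The median folds of the 58 were 7.07 and 8.51, near those of all members. Long non-coding RNA genes overlapped the summit of 289 members (6.75%) and 4.29% of gene-body bases, and 127 members (2.97%) were within 1 kb of an end of one, against 1.27% of bases. A microRNA hairpin overlapped 2 regions: Mir6352 in Epha4, with folds of 7.19 and 6.13, and Mir6991 in 2700081O15Rik, with 5.42 and 5.71.

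In the 64 windows that held a member summit, 14 short motifs were searched on both strands, with matches allowed to overlap, and set beside all 6671 windows inside gene bodies and all 32851 windows of the table. The MEIS motif TGACAG was in 32.8% of the 64 (95% Wilson interval 22.6 to 45.0), 19.8% of the internal and 19.2% of all windows. The E-boxes CAGATG and CAGCTG were in 29.7% and 28.1%, against 18.96% and 18.8% inside genes. The AP-1 motif TGANTCA was in 15.6% (8.71 to 26.4) against 8.17%, and the SOX motif ACAAAGG in 10.9% (5.40 to 20.9) against 6.96%. Windows of one gene can overlap each other, so they are not independent, and no test was made. AAGATAA, a motif like that of the PRDM16 relative EVI1, was in 3.13% against 3.48%, and the palindromic NFI motif was in none of the 64, against 0.0300% inside genes. These matches are letters in a window and not sites. In the printed stretches, ACAAAGG starts 5 bases before the summit in Coro1c and 15 bases before it in Sox6, where TGACAG starts 4 bases after the summit. In Asic2 the nearest searched motif, CAGATG, starts 89 bases before the summit, and in Nfia none starts nearer than 191 bases. These distances cover only the 250 printed bases before each start site. The Asic2 and Nfia summits lie 11 and 14 bases before theirs, so the distances say little about the sequence after the summit.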

How the data were processed

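PRDM16 ChIP-seq peak lists of 2 WT and 2 cKO libraries were used. The reads were checked and trimmed with FastQC and cutadapt, aligned to mm10 with Bowtie2 2.2.8, and peaks were called with MACS2 2.1.1, per the submitters' processing notes; one deposited list per library shows that peaks were called per sample. Each deposited list gives per peak a score, a fold enrichment over local background, a −log10 p-value and a −log10 q-value, as the authors' peak caller wrote them. Each fold was called for a single ChIP library, against a background that may come from its input. No change between genotypes was computed from the folds. WT folds were only set beside the smallest fold that could be called in cKO at the median background.

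On chromosomes 1 to 19, X and Y, overlapping peaks of a list were merged. A region was the union of peaks overlapping by at least 1 bp between the WT lists and touching no cKO peak, and its summit was the mean of both summits. Gene ends came from RefSeq GRCm38.p6 (21887 protein-coding genes), and the RefSeq start-site table gave strand and sequence. The whole-number pileup and the background at each summit were solved from the fold and the −log10 p-value, for 100% of peaks. The notes do not say whether the caller scaled the libraries, so pileups show relative precision within a library. Intervals are 95% Wilson intervals for counting error.

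The genes named are those of the 15 highest mean folds, the 10 with most regions, the 6 with most regions per 100 kb, up to 4 of the strongest members of each of 20 lists (478 entries), the 3 widest, those where the replicates differed most and those nearest the 1 kb limit. Others, such as those at start sites or on X, were named after their values were seen. The members and lists were chosen with earlier results of these data known. Motifs at all summits and exon shares were not analysed here, since no genome was used. The scripts (Python 3.11.15, numpy 2.4.6, pandas 2.3.3, scipy 1.17.1, matplotlib 3.10.9) were tested on simulated peak lists, and 13 alternative settings were run.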

Additional observations from a re-analysis of the deposited data

How the results depend on the processing

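Each of 8 summary values was recomputed under 13 alternatives. A count was called close within 1.5 times of the reported value, and the share within its Wilson interval. The median fold, the fold ratio and the distance were called close within the SD between the WT replicates. These SDs were 0.691, 0.0170 and 13.4 bp. By these rules, which are loose for counts and strict for the distance, 73 of the 104 values stayed close and 31 moved. The ratio of the gene-body to the intergenic median fold, 0.988, moved under none of the 13. Holding each list to the 3088 peaks of the shortest gave 857 regions in 629 genes, 8 genes with 5 or more, 100 listed genes, a median fold of 14.7, a share in gene bodies of 45.2% and a median distance to a gene end of 52771 bp. A −log10 q of at least 5 in all lists gave 112 genes with 5 or more, a median fold of 8.65 and a distance of 46568 bp, and in the WT lists only 112 genes, 8.65 and 46872 bp. Requiring 50% overlap gave 45143.5 bp, and counting any cKO peak within 1 kb gave 45339 bp. A gene-end limit of 2 kb gave a share of 45.0% and 46814 bp, a limit of 5 kb 42.3% and 50902 bp, and all RefSeq genes 53.4% and 18941 bp. Leaving out each library in turn gave 4340 to 11316 regions, 2053 to 3838 genes, 200 to 680 genes with 5 or more, a median fold of 5.41 to 7.49, a share of 45.1% to 46.3% and a distance of 39375 to 44749 bp. The highest counts came without WT replicate 1. Motif and exon alternatives at summits were not run. No paired analysis was possible because the results come from no test.

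The limits are these. With 2 libraries per genotype no test between genotypes was made, and WT and cKO lists differ in library identifier as well as in genotype. Absence from the cKO lists is absence of a called peak there, and signal under their limits was not measured.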
